A study of Mus musculus with 4 samples.

Results

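The 5 long noncoding RNAs described here act in the nucleus and were followed through nuclei of mouse liver: Neat1, Malat1, Meg3, Kcnq1ot1 and Airn. They were chosen by symbol, and all 5 were found among the 32285 gene rows of the count matrices. The series holds 4 libraries of single nuclei, 2 made after a fast of 16 to 24 h (fasted 1 and fasted 2) and 2 made from fed mice (fed 1 and fed 2). Each library was made from 50 mg of frozen liver pooled over 8 mice and loaded with 10x chemistry 3.1. The labels name no genetic change, and strain, sex, age and time of day are not given in them. Whether the 2 preparations of a feeding state share mice is not stated, so the p-values below measure the spread between preparations, which may be technical.

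Long noncoding RNAs of this kind are made by RNA polymerase II and stay in the nucleus, where some build nuclear bodies and others silence neighbouring genes. Neat1 is the scaffold of paraspeckles, and Malat1, its neighbour, is an abundant RNA of nuclear speckles. Meg3, Kcnq1ot1 and Airn come from imprinted regions, in which only the copy inherited from 1 parent is used. Meg3 is made from the maternal copy of the Dlk1-Dio3 region, together with Rian and Mirg downstream. Airn and Kcnq1ot1 are made from the paternal copy and can silence genes around them in cis. Airn can reach Igf2r, Slc22a2 and Slc22a3, and Kcnq1ot1 can reach Cdkn1c, Kcnq1 and Slc22a18 among others. Which of these are silenced in liver was not tested here. In the liver lobule, blood runs from the portal to the central vein, and hepatocytes along that path use different genes. The hepatocytes in a thin layer around the central vein make glutamine with Glul.

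In mm10 (GENCODE M21), Malat1 and Neat1 lie on the minus strand of chromosome 19, at 5795690 to 5802672 and 5824708 to 5845478, 22035 bases apart. Meg3 lies on the plus strand of chromosome 12 at 109541001 to 109571726. Kcnq1ot1 lies on the minus strand of chromosome 7 at 143203458 to 143296549, wholly within Kcnq1 (93092 bases), which is on the plus strand. Airn lies on the plus strand of chromosome 17 at 12741311 to 12860136. Of these, 28354 bases of it overlap Igf2r on the minus strand, and its far end overlaps Mas1 on the same strand as Igf2r. No source used here gives the strand setting of the counting. Reads of Airn and Igf2r, and of Kcnq1ot1 and Kcnq1, can therefore not be fully told apart, and these counts are uncertain to that extent.

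After filtering, fasted libraries kept 10183 and 6626 nuclei of 11770 and 7499 barcodes, and fed libraries 8832 and 4177 of 9736 and 5396. Any pair of libraries shared 12 to 42 barcodes. Clusters were named by resemblance to marker genes (hepatocyte-like and so on), with the 5 RNAs kept out of the clustering genes. The short names used here stand for that resemblance. Hepatocytes numbered 18828, and most of their 11 clusters came mainly from 1 library. There were 5402 endothelial, 1978 Kupffer cell or macrophage, 1773 stellate, 561 T or NK, 509 cholangiocyte, 421 B or plasma, 119 mesothelial and 87 dendritic nuclei, while 140 nuclei of a mitochondrial cluster stayed unnamed. Depth was lowest in fed 2, where hepatocytes had a median of 1282 unique molecular identifiers (UMIs, 1 per captured transcript), against 2554.5 to 3239 in the other libraries. Transcripts of 10 hepatocyte markers reached 33.0% to 94.0% of their hepatocyte level in the other named types. Levels of the 5 RNAs in those types are therefore set against that share in the same type and library below.

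Malat1 made up 1.52% to 5.29% of all UMIs in every named type and library. In hepatocytes its level was 17918 and 32209 CPM (the RNA's UMIs scaled to all UMIs of a library's nuclei of that type) in fasted 1 and 2, against 22629 and 36531 CPM in fed 1 and 2. In stellate cells it was 21638 and 48982 CPM in fasted libraries, against 26404 and 45321 CPM in fed libraries. In cholangiocytes it was 21358 and 47775 CPM in fasted libraries, against 31862 and 52852 CPM in fed libraries. In every named type, both libraries numbered 2 lay above both libraries numbered 1, whatever the feeding state. The difference between preparations was thus larger than that between feeding states in all 9 named types. In hepatocytes, 19.9% of the 13982 genes tested showed that same order of libraries. In endothelial nuclei 1977 of 10163 tested genes showed it, in Kupffer cells 1634 of 8229 and in stellate cells 1401 of 7538. In cholangiocytes 692 of 4212 did, and in B or plasma cells 698 of 3392. Malat1 thus shared the order with many genes. In all 32 pairs of another type and a library, Malat1 exceeded the share reached by the hepatocyte markers, at 77.3% to 152% of the hepatocyte level.

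**Figure D1:**
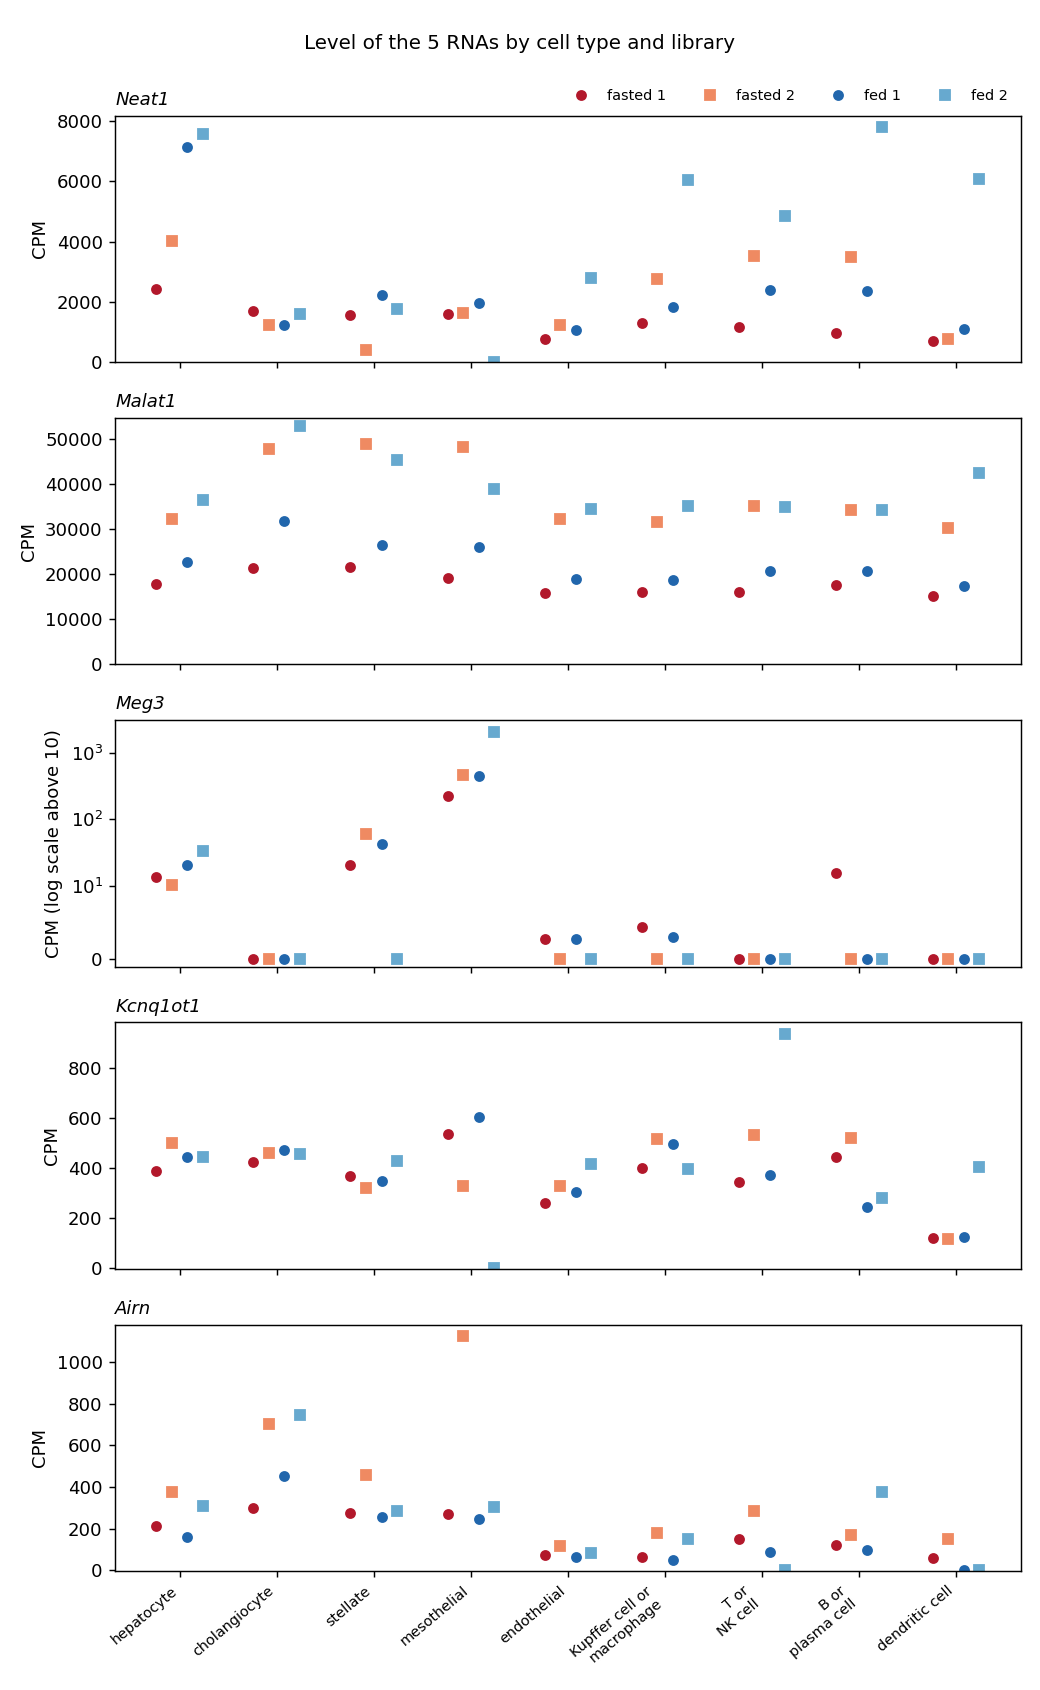
Level in CPM (vertical axes, linear from 0 except for Meg3, where the axis is logarithmic above 10) of the 5 RNAs in 9 named cell types (horizontal axis). Each point is 1 library, fasted left of fed. Malat1 separates libraries 2 from libraries 1 in every type, Meg3 is highest in mesothelial nuclei, and Neat1 is highest in hepatocytes in all libraries but fed 2.

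Neat1 was highest in hepatocytes in fasted 1, fasted 2 and fed 1. Its hepatocyte level was 2431 and 4018 CPM in fasted libraries and 7154 and 7582 CPM in fed libraries. The nearest type by mean level was B or plasma cells, with 954 and 3495 CPM in fasted libraries, against 2359 and 7793 CPM in fed libraries. In fed 2 that value exceeded the hepatocyte value. Endothelial nuclei had 767 and 1235 CPM in fasted libraries and 1075 and 2791 CPM in fed libraries. Outside hepatocytes Neat1 exceeded the share of the hepatocyte markers in only 3 of 32 pairs of type and library, and whether its level there came from hepatocyte RNA was not tested. Averaged over the 4 libraries, the order below hepatocytes (5296 ± 2484 CPM, SD, n = 4) ran through B or plasma cells (3650 ± 2951) and Kupffer cells (2980 ± 2127) to T or NK cells (2976 ± 1577). Each of these 3 steps was smaller than the spread over libraries, which the types share. Set against hepatocytes of the same library, Neat1 was at 25.8% to 79.7% in Kupffer cells and 33.5% to 87.3% in T or NK cells. In B or plasma cells it was at 33.0% to 102.8%. Mesothelial nuclei had the lowest mean (1302 ± 883). In B or plasma, Kupffer, T or NK and endothelial nuclei both libraries numbered 2 lay above both libraries numbered 1. As counted above for Malat1, many tested genes showed that order in B or plasma, Kupffer and endothelial nuclei. No such count was made for T or NK nuclei.

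Kcnq1ot1 lay at a like level in most types. Hepatocytes held 387 and 500 CPM in fasted libraries and 443 and 443 CPM in fed libraries. Cholangiocytes (454 ± 20.6 CPM), Kupffer cells (452 ± 61.9 CPM) and hepatocytes (443 ± 45.9 CPM; SD, n = 4 each) did not differ beyond their spread. Stellate nuclei (367 ± 45.8 CPM) and endothelial nuclei as a whole (327 ± 66.8 CPM) lay lower. The 2 endothelial clusters differed with libraries pooled. The larger (5131 nuclei) held 280 CPM and the smaller (271 nuclei, with Vwf among its leading genes) 533 CPM from 133 UMIs. In endothelial, stellate, cholangiocyte and T or NK nuclei Kcnq1ot1 exceeded the share of the hepatocyte markers in all 4 libraries. T or NK cells had the highest mean, 548 ± 273 CPM (SD, n = 4), but the level of 938 CPM in fed 2 rested on 6 UMIs.

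Airn was higher in cholangiocytes than in hepatocytes in every library. Cholangiocytes, which line the bile ducts, held 297 and 701 CPM in fasted libraries and 452 and 744 CPM in fed libraries, which was 141% to 283% of the hepatocyte level in the same library. Stellate cells, the vitamin A-storing cells of the sinusoid, held 275 and 456 CPM in fasted libraries and 255 and 286 CPM in fed libraries. Hepatocytes as a whole held 211 and 375 CPM in fasted libraries and 160 and 309 CPM in fed libraries. Endothelial nuclei as a whole held 73.9 and 116 CPM in fasted libraries and 63.2 and 83.6 CPM in fed libraries. This was below the share of the hepatocyte markers in all 4 libraries. The same held for Kupffer cells. With libraries pooled, the larger endothelial cluster (5131 nuclei) held 61.1 CPM. The smaller one (271 nuclei, with Vwf among its leading genes) held 433 CPM from 108 UMIs, beside 424 CPM in cholangiocytes pooled likewise. As with Malat1, both libraries numbered 2 lay above both numbered 1 in 7 of 9 types, an order that many tested genes showed, as counted above. Mesothelial nuclei averaged 485 ± 427 CPM (SD, n = 4), a value resting on 67 UMIs.

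Meg3 was found in few cell types. Mesothelial nuclei, from the sheet that covers the liver, held 221 and 468 CPM in fasted libraries, against 453 and 2112 CPM in fed libraries, from 24, 10, 24 and 7 UMIs. This was 1645% to 6446% of the hepatocyte level in the same library, in 119 nuclei overall. The highest value, in fed 2, came from 1 of only 4 mesothelial nuclei in that library. Stellate cells held 20.6 and 60.1 CPM in fasted libraries and 42.3 and 0 CPM in fed libraries. Hepatocytes held 13.5 and 10.2 CPM in fasted libraries and 20.4 and 32.8 CPM in fed libraries. In T or NK cells, cholangiocytes and dendritic cells no Meg3 UMI was counted in any library, and 11 were counted in all 5402 endothelial nuclei together.

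To compare the 5 RNAs with each other, hepatocyte levels were divided by gene length, although these 3' tags do not grow with length in a simple way. Malat1 then gave 2566 and 4612 CPM per kb in fasted libraries and 3241 and 5232 CPM per kb in fed libraries. Neat1 gave 117 and 193 CPM per kb in fasted libraries and 344 and 365 CPM per kb in fed libraries. Kcnq1ot1 gave 4.16 to 5.37, Airn 1.34 to 3.15 and Meg3 0.330 to 1.07 CPM per kb over the 4 libraries. The order Malat1, Neat1, Kcnq1ot1, Airn, Meg3 held in each library.

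Nuclei differed in how unevenly they carried the RNAs. With each hepatocyte thinned to 1000 UMIs (147, 62, 162 and 1228 shallower nuclei of fasted 1, fasted 2, fed 1 and fed 2 left out), Malat1 was found in 99.9% to 100% of nuclei. Neat1 was found in 82.0% and 86.3% of nuclei in fasted libraries, against 98.1% and 97.3% in fed libraries. Its mean per thinned nucleus was 2.41 and 3.88 UMIs in fasted libraries and 6.92 and 7.54 UMIs in fed libraries. Kcnq1ot1 was found in 29.8% to 37.0% of nuclei, with a variance 1.11 to 1.16 times its mean, close to that of pure counting. Airn was found in 13.7% and 19.1% of nuclei in fasted libraries and 9.82% and 18.3% in fed libraries, and its variance was 1.92 to 3.36 times its mean. The 1% of hepatocytes richest in Airn held 18.96% to 28.66% of its UMIs. Meg3 was found in 0.610% and 0.910% of hepatocytes in fasted libraries (exact 95% intervals 0.418% to 0.860% and 0.654% to 1.23%), against 0.776% and 1.28% in fed libraries (0.550% to 1.06% and 0.882% to 1.79%). In endothelial nuclei thinned to the same depth, Meg3 was found in 1 of 563 and 0 of 337 nuclei in fasted libraries and in 1 of 538 and 0 of 21 in fed libraries. Median depths before thinning were 742 to 888 UMIs in endothelial nuclei and 1282 to 3239 UMIs in hepatocytes. These intervals cover counting error only.

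Across the 24 profiles of 6 types in 4 libraries, the genes whose log2(CPM + 1) followed each RNA most closely were listed among 9251 genes as a description. The profiles share libraries and depth. Neat1 was followed by Gramd1c (Pearson r = 0.928), Mtss1, Ttc39c, Mlxipl and Nlrp6. Malat1 was followed by Cmss1 (r = 0.896), Ahdc1, Smad3, Kdm4b and Gm42418. Airn was followed by Ahdc1 (r = 0.852), Plxnb1, Msi2, Cacna1d and Gpr39. Kcnq1ot1 had Uhrf1bp1 (r = 0.761), Mapre3, Dock5, Zfp612 and Nmnat3 nearest to it. Meg3 had Gm16833 (r = 0.691), Adap2os, Grid1, Hbs1l and Tbx3os1.

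Feeding state was compared next, to ask whether the 5 RNAs differed between livers of fasted and of fed mice. Neat1 was lower in hepatocytes of both fasted libraries than in either fed library, with a log2 fold change (fasted minus fed) of -1.22 ± 0.39 (SE). This did not pass the threshold of 0.05 after adjustment over all 13982 genes (edgeR quasi-likelihood test, unadjusted p = 0.0201, Benjamini-Hochberg adjusted p = 0.629). In hepatocytes 15.6% of tested genes likewise had both fasted libraries below both fed ones. Meg3 had the same difference in size, at -1.22 ± 0.43 (unadjusted p = 0.0284, adjusted p = 0.663 in edgeR), and its fasted libraries also lay below the fed ones. Malat1 (-0.28 ± 0.48), Kcnq1ot1 (-0.03 ± 0.31) and Airn (0.27 ± 0.49) had overlapping fasted and fed libraries. None of the 5 RNAs passed in hepatocytes with edgeR, and none passed with DESeq2. In edgeR 2 of the 5 had an unadjusted p under 0.05, as had 951 of all 13982 genes tested. The background of adjusted calls was low, since edgeR called 0.00715% of the 13982 genes (1 gene) and DESeq2 called 1.18% (165 genes). The sign of 3 of these values rested on single libraries. Without fasted 1 Malat1 was at 0.09 and Kcnq1ot1 at 0.16, without fed 2 they were at 0.19 and 0.04, and Airn was at -0.25 without fasted 2 and at -0.17 without fed 1.

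Among the 5 other types tested, the fitted Neat1 value was below 0 in all but cholangiocytes, and it passed in none. In B or plasma, Kupffer and endothelial nuclei its fasted and fed libraries overlapped, and the libraries numbered 2 were the higher. Its log2 fold change was -0.98 ± 0.47 in endothelial nuclei, -1.02 ± 0.69 in Kupffer cells, -0.98 ± 0.64 in stellate cells, -1.19 ± 0.75 in B or plasma cells and 0.21 ± 0.50 in cholangiocytes. Leaving out 1 library leaves 1 library in its group, which is then assumed to vary like the other group. Under that assumption Neat1 passed in endothelial nuclei without fed 1 (-1.56, adjusted p = 0.00979 in edgeR), and in stellate cells without fasted 1 (-2.28, adjusted p = 0.0045 in edgeR). Its sign turned without fed 2 in B or plasma cells (0.02) and in Kupffer cells (0.24), and without fasted 1 in cholangiocytes (-0.08). These levels lay mostly within the share of the hepatocyte markers, and the part of hepatocyte RNA in them was not tested. None of the 4 or 5 RNAs tested per type passed in any of the 5 types (edgeR), where the share of all tested genes called was 0% in B or plasma cells, 0.0122% in Kupffer cells, 0.0475% in cholangiocytes, 0.059% in endothelial nuclei and 0.0398% in stellate cells. B or plasma cells had no called gene with edgeR, 110 genes at an unadjusted p under 0.05, and 6 with DESeq2.

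A test of whether the feeding effect differed between each of the 5 types and hepatocytes called none of the 5 RNAs (edgeR interaction term). Of all genes it called 0.0244% in B or plasma cells, 0.281% in Kupffer cells, 0.00788% in cholangiocytes, 0.633% in endothelial nuclei and 0.25% in stellate cells. The smallest unadjusted p among them was 0.012, for Kcnq1ot1 in B or plasma cells (log2 difference 1.04 ± 0.42, adjusted p = 1 in edgeR). Neat1 in cholangiocytes differed from hepatocytes by 1.58 ± 0.69 (unadjusted p = 0.0213, adjusted p = 1 in edgeR). With 1 library left out, and the lone library of its group assumed to vary like the others, the Neat1 difference passed in edgeR in endothelial nuclei without fed 2 (1.16), in Kupffer cells without fed 2 (1.44) and in stellate cells with opposite signs without fasted 1 (-1.36) and without fasted 2 (1.36). Meg3 in stellate cells passed in the same way without fed 1, where the only fed library left had no Meg3 UMI.

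**Figure D2:**
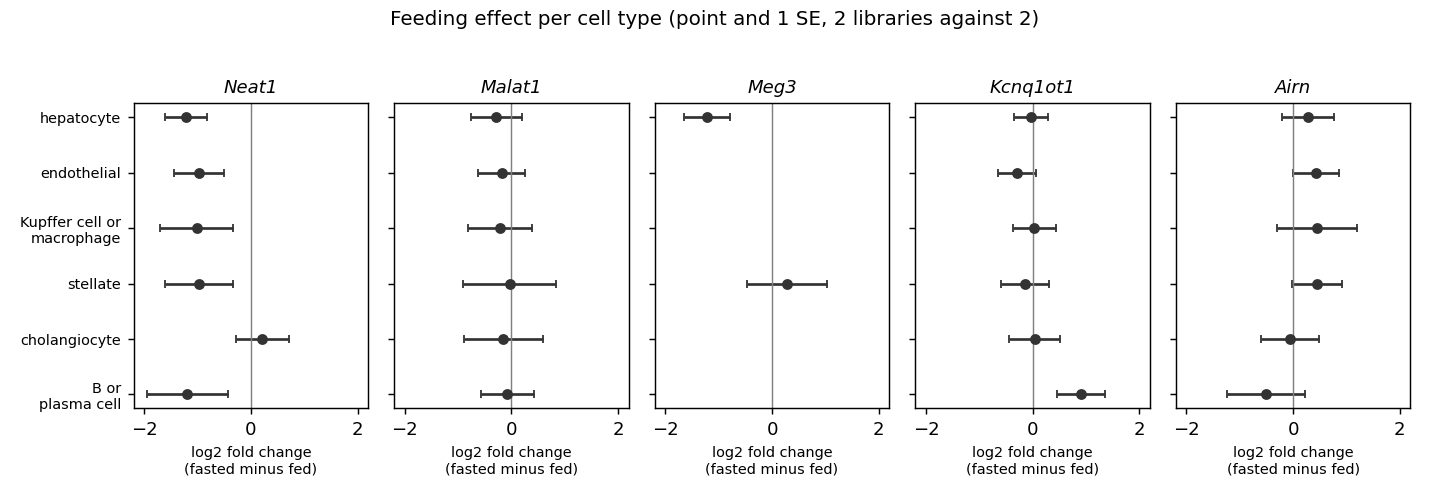
Log2 fold change of fasted minus fed libraries (horizontal axes) for each RNA in 6 cell types (rows). Points are edgeR estimates and bars 1 SE, with 2 libraries per group, and types where an RNA failed the filter on low counts have no point. Neat1 sits below 0 in 5 of 6 types, in 3 of which its fasted and fed libraries overlapped, and none of the values shown passed the adjusted test.

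Along the lobule, 4 of the 5 RNAs differed between the ends. Hepatocytes with at least 1500 UMIs (4805, 4230, 4339 and 1570 in fasted 1, fasted 2, fed 1 and fed 2) were scored by 9 pericentral and 11 periportal landmark genes, none of them among the 5 RNAs. Landmarks of odd and even number gave scores that correlated at 0.576 to 0.645 across the nuclei of a library. Each library's nuclei were split into 3 equal zones by score, and the pericentral zone was compared with the periportal zone, with library as a block. Airn and Meg3 were higher in the pericentral zone, Neat1 and Kcnq1ot1 were lower there, and Malat1 did not pass. So 2 of the 5 rose and 2 fell, where 15.7% of the 12296 genes tested were called, 8.04% higher and 7.69% lower.

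Airn rose steeply toward the central vein. Its pericentral level was 463 and 895 CPM in fasted libraries and 373 and 768 CPM in fed libraries, against periportal levels of 28.9 and 28.7 CPM in fasted libraries and 17.3 and 35.4 CPM in fed libraries. The ratio was 16.0 and 31.2 in fasted libraries and 21.5 and 21.7 in fed libraries, and the zones did not overlap. The log2 fold change (pericentral minus periportal) was 4.47 ± 0.13 (SE; edgeR, adjusted p = 2.07e-08), and only 29 genes had a larger one in either direction. Counting the stored zeros of the matrices as 1 lowered it to 3.64. At equal depth, Airn was found in 38.4% and 55.4% of pericentral nuclei in fasted libraries and 29.9% and 52.0% in fed libraries, against 3.56% and 2.91% of periportal nuclei in fasted libraries and 2.28% and 4.39% in fed libraries. In sixths of the score, a finer split chosen after the values were seen, its level grew at every step, reaching 734 and 1454 CPM in the most pericentral sixth of fasted libraries and 587 and 1239 CPM in that of fed libraries. The sixth on the portal side held 17.8 and 12.95 CPM in fasted libraries and 9.02 and 21.8 CPM in fed libraries.

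Meg3 was counted almost only in the pericentral zone. The pericentral zone held 247 and 178 Meg3 UMIs in fasted libraries and 295 and 126 in fed libraries, whereas the periportal zone held 0 in all 4 libraries. Pericentral levels were 33.1 and 26.5 CPM in fasted libraries and 49.8 and 80.4 CPM in fed libraries. In the periportal zone, 3 UMIs would give 0.535, 0.545, 0.633 and 2.08 CPM in fasted 1, fasted 2, fed 1 and fed 2. The pericentral level was 61.8 and 48.7 times that level in fasted 1 and 2, and 78.7 and 38.6 times in fed 1 and 2. The edgeR adjusted p was 1.35e-10. The periportal zone did hold stored zeros for Meg3, and counting these as 1 gave a log2 fold change of 4.91. In the middle zone Meg3 had 17 and 3 UMIs in fasted libraries and 0 and 0 in fed libraries. In sixths, its level was highest in the last, at 62.7 and 55.0 CPM in fasted libraries and 96.8 and 140 CPM in fed libraries.

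**Figure D3:**
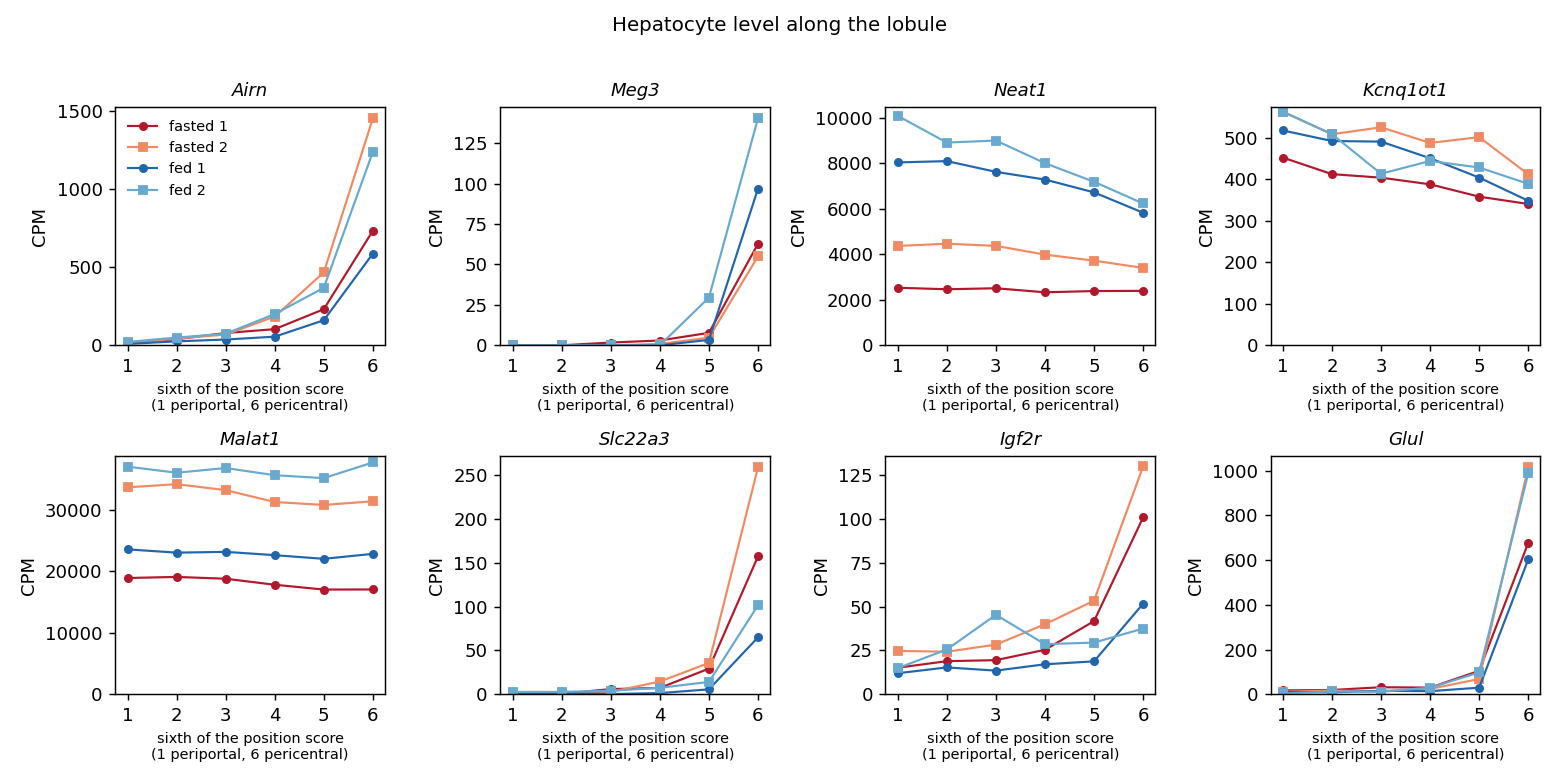
Level in CPM (vertical axes, from 0) of the 5 RNAs, of Slc22a3 and Igf2r from the Airn region and of the landmark Glul in 6 equal bins of hepatocytes ordered by the position score (horizontal axis, 1 periportal to 6 pericentral). Each line is 1 library. Airn and Meg3 climb toward bin 6 in all 4 libraries, Neat1 declines toward it most in fed 2, and Malat1 stays nearly level.

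The promoters of these 2 RNAs are shown because both were high in the same zone while their gradients differed in shape. The sequences run from 250 bases before to 50 after the start of transcription (RefSeq, GRCm38.p6), at chr17:12741061-12741360 for Airn and chr12:109540746-109541045 for Meg3, both on the plus strand. They were searched on both strands for a cyclic AMP response element (TGACGTCA) and for the core bound by TCF factors of the Wnt pathway (CTTTGA). Capitals mark matches.
Airn: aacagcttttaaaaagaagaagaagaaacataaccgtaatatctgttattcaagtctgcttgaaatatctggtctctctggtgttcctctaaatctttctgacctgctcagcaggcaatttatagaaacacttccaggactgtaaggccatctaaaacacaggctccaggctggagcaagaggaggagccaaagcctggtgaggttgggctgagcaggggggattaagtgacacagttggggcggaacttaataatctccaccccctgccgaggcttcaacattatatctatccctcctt
Meg3: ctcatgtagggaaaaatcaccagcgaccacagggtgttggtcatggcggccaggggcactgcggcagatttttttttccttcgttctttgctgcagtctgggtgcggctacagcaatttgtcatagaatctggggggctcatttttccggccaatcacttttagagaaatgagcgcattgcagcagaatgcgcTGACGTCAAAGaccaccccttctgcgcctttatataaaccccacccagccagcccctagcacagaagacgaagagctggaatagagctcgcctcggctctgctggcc
Neither motif was found in the Airn window. In the Meg3 window both were found in 1 overlapping stretch of capitals, the response element at bases 194 to 201 and the reverse complement of the TCF core at bases 199 to 204. Of all 32851 promoter windows in the table, 1.79% held the response element and 16% the TCF core. Matched by symbol, the table also held windows for Malat1 and Kcnq1ot1, and a window at a further annotated Meg3 start, and neither motif was found in these.

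Genes of the Airn region were read beside it, since Airn can silence several of them in cis. Whether it does so in these hepatocytes was not tested. Of 5 genes read, 3 passed the filter on low counts. In the pericentral zone 2 of these were higher and none was lower, where 8.04% of all genes tested were higher. Their median log2 fold change was 1.67 against -0.01 for all genes. Slc22a3, a transporter of organic cations and monoamines, had 659 and 888 pericentral UMIs in fasted libraries and 208 and 85 in fed libraries, against 2 and 5 periportal UMIs in fasted libraries and 6 and 4 in fed libraries (log2 fold change 6.36 ± 0.27, edgeR adjusted p = 3.7e-09). Igf2r, the receptor that carries insulin-like growth factor 2 and lysosomal enzymes to lysosomes, had 69.0 and 86.5 CPM in pericentral nuclei of fasted libraries and 35.1 and 33.2 CPM in those of fed libraries. Its periportal levels were 17.1 and 24.5 CPM in fasted libraries and 13.7 and 20.2 CPM in fed libraries (1.67 ± 0.14, edgeR adjusted p = 3.32e-07). Reads of Airn counted as Igf2r would add to this, which was not tested. Plg, the plasminogen gene beyond Slc22a3, was at -0.06 ± 0.05. Slc22a2 had at most 2 UMIs in any class of scored nuclei and library. Airn, Slc22a3 and Igf2r were therefore high in the same zone of hepatocytes.

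In the Meg3 region, 3 of 7 listed genes passed the filter. Rian, a long noncoding RNA that hosts small nucleolar RNAs and microRNAs, rose by 3.60 ± 0.35 (edgeR adjusted p = 1.15e-06), with 90 and 31 pericentral UMIs in fasted libraries and 82 and 32 in fed libraries, against 7 and 5 periportal UMIs in fasted libraries and 3 and 0 in fed libraries. Mirg, a further microRNA host, rose by 2.65 ± 0.52 (edgeR adjusted p = 0.00136) on 22, 15, 25 and 3 pericentral UMIs in fasted 1, fasted 2, fed 1 and fed 2. Wdr25, at the edge of the region, was at 0.09 ± 0.11. Dlk1, the paternally used gene of the region, had no UMI in scored hepatocytes. The maternally expressed RNAs Meg3, Rian and Mirg were thus all pericentral.

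Neat1 fell by 0.31 on the log2 scale in the pericentral zone (SE 0.06, edgeR adjusted p = 0.00166). Its pericentral level was 2389 and 3583 CPM in fasted libraries and 6278 and 6750 CPM in fed libraries, against 2496 and 4419 CPM in periportal nuclei of fasted libraries and 8069 and 9512 CPM in those of fed libraries. The pericentral value was the lower in each of the 4 libraries. The ratio was 0.957 in fasted 1 and 0.811 in fasted 2, against 0.778 in fed 1 and 0.710 in fed 2. Kcnq1ot1 fell by 0.33 (SE 0.05, edgeR adjusted p = 2.55e-04), with pericentral levels of 350 and 463 CPM in fasted libraries and 376 and 410 CPM in fed libraries, against periportal levels of 431 and 534 CPM in fasted libraries and 505 and 536 CPM in fed libraries. Here too the pericentral value was the lower in all 4 libraries. Malat1 differed by -0.09 ± 0.05 (edgeR adjusted p = 0.291), with 17031 and 31026 CPM in pericentral nuclei of fasted libraries and 22419 and 36297 CPM in those of fed libraries, against 18991 and 33899 CPM in periportal nuclei of fasted libraries and 23283 and 36507 CPM in those of fed libraries.

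Of 10 genes listed for the Kcnq1ot1 region, 4 passed the filter. Of these, Slc22a18 was higher in the pericentral zone (0.37 ± 0.08, edgeR adjusted p = 0.00267) and none was lower. Of all genes tested, 8.04% were higher and 7.69% lower. Slc22a18, an imprinted transporter, had 76.1 and 143 CPM in pericentral nuclei of fasted libraries and 55.2 and 116 CPM in those of fed libraries, against 62.6 and 104 CPM in periportal nuclei of fasted libraries and 48.6 and 75.0 CPM in those of fed libraries. Nap1l4 (-0.17 ± 0.08), Tssc4 (-0.10 ± 0.21) and Cd81 (0.14 ± 0.17) did not pass. Kcnq1 itself stayed at 0.363 to 1.62 CPM in hepatocytes over the 4 libraries.

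Nuclei around the central vein were then looked at more closely, in a class chosen after the values were seen. Scored hepatocytes with at least 2 Glul UMIs among 1500 numbered 273 and 313 in fasted libraries and 194 and 127 in fed libraries, or 5.68% and 7.40% of scored nuclei in fasted libraries and 4.47% and 8.09% in fed libraries. They held 54.3% and 75.3% of the Meg3 UMIs in fasted libraries and 68.9% and 49.3% in fed libraries. They held 30.2% and 41.9% of the Airn UMIs in fasted libraries and 33.0% and 36.8% in fed libraries. For Neat1, Malat1 and Kcnq1ot1 the share was 3.24% to 8.38%, near the share of nuclei. Airn reached 1022 and 2071 CPM in these nuclei of fasted libraries and 1014 and 1491 CPM in those of fed libraries, which was 2.69 to 3.46 times its level in the rest of the pericentral zone. Meg3 reached 139 and 100 CPM in fasted libraries and 258 and 177 CPM in fed libraries, 3.54 to 10.6 times the rest of that zone. Most of these nuclei had no Meg3 UMI among 1500. It was found in 25 of 273 and 27 of 313 in fasted libraries, and in 21 of 194 and 14 of 127 in fed libraries. Airn was found in 180 and 255 of them in fasted libraries and in 123 and 99 in fed libraries. Slc22a3 followed at 302 and 392 CPM in fasted libraries and 123 and 145 CPM in fed libraries, and Rian at 48.4 and 14.4 CPM in fasted libraries and 89.4 and 45.6 CPM in fed libraries.

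**Figure D4:**
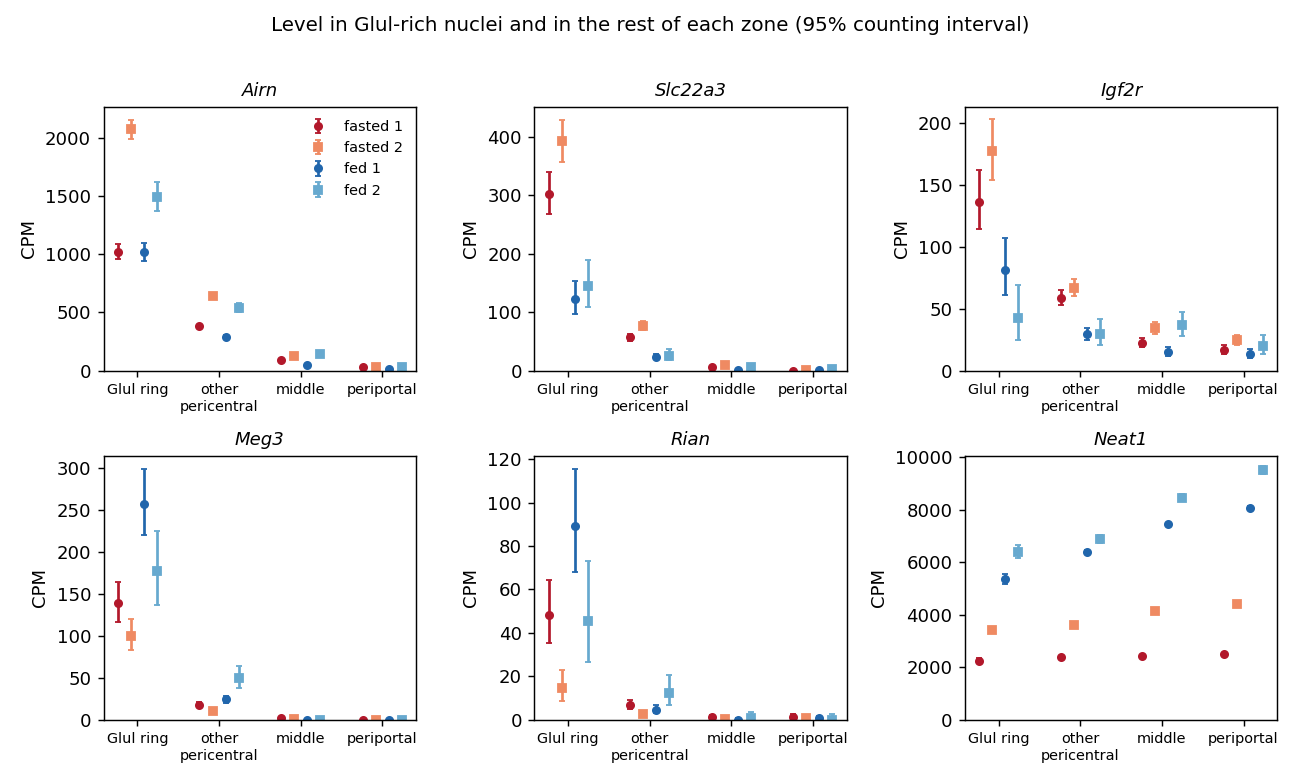
Level in CPM (vertical axes, from 0) of 3 genes of the Airn region, of Meg3 and Rian, and of Neat1 in hepatocytes with at least 2 Glul UMIs among 1500 (Glul ring) and in the remaining pericentral, middle and periportal nuclei (horizontal axis). Points are libraries, fasted left of fed, and bars are exact 95% counting intervals. Airn, Slc22a3, Meg3 and Rian are highest in the Glul ring in all 4 libraries.

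Hepatocytes with a Meg3 UMI were few, 77 and 69 in fasted libraries and 63 and 51 in fed libraries. Of these, 87.0% and 81.2% in fasted libraries and 84.1% and 82.4% in fed libraries also had a Glul UMI. Among hepatocytes without Meg3, 16.9% and 14.2% in fasted libraries and 11.05% and 12.3% in fed libraries had one. An Airn UMI was present in 90.9% and 92.8% of Meg3-positive hepatocytes of fasted libraries and 69.8% and 80.4% of those of fed libraries, against 26.3% and 31.4% of Meg3-negative ones in fasted libraries and 17.4% and 21.4% in fed libraries. Median depth was 5116 and 3098 UMIs in Meg3-positive nuclei of fasted libraries and 2916 and 1645 UMIs in those of fed libraries, against 2912.5 and 3240 UMIs in Meg3-negative nuclei of fasted libraries and 2548 and 1276 UMIs in those of fed libraries. Mesothelial markers summed to 0 and 3.07 CPM in Meg3-positive nuclei of fasted libraries and 0 and 0 CPM in those of fed libraries, against 1.48 and 0.474 CPM in Meg3-negative nuclei of fasted libraries and 1.09 and 1.05 CPM in those of fed libraries. Endothelial markers summed to 126 and 55.2 CPM in Meg3-positive nuclei of fasted libraries and 125 and 79.1 CPM in those of fed libraries, against 60.1 and 35.1 CPM in Meg3-negative nuclei of fasted libraries and 46.3 and 68.4 CPM in those of fed libraries. Endothelial markers were thus higher in Meg3-positive nuclei in all 4 libraries, though in fed 2, with 51 such nuclei, the values lay close together. The Meg3-negative hepatocytes came from all zones, so a difference between zones was not separated from 1 tied to Meg3. Endothelial nuclei themselves held 2.72 and 0 CPM of Meg3 in fasted libraries and 2.75 and 0 CPM in fed libraries. Stellate markers summed to 24.8 and 15.3 CPM in Meg3-positive nuclei of fasted libraries and 35.7 and 79.1 CPM in those of fed libraries. In Meg3-negative nuclei they summed to 29.05 and 19.1 CPM in fasted libraries and 56.5 and 73.7 CPM in fed libraries. Only in fed 2 were they higher in Meg3-positive nuclei. The part of endothelial or stellate RNA in the Meg3 counts was not tested.

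Whether the gradients depended on feeding was tested as an interaction of position and feeding. None of the 4 RNAs with an estimable value passed, with 0.203% of 12296 genes called (25 genes, edgeR). Neat1 came nearest, its pericentral minus periportal log2 difference being 0.24 ± 0.10 higher in fasted than in fed libraries (unadjusted p = 0.0258, adjusted p = 0.595 in edgeR). Without fed 1, with the lone fed library assumed to vary like the fasted ones, it passed (0.29, adjusted p = 0.0361 in edgeR). The interaction was 0.07 ± 0.36 for Airn, -0.12 ± 0.09 for Malat1 and 0.15 ± 0.10 for Kcnq1ot1, and for Airn it was -0.43 without fasted 2. For Meg3 every periportal zone was at 0, so its fitted value cannot be interpreted and is not given.

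Proteins and RNAs that work with these 5 were read from lists. Of 18 paraspeckle proteins, all tested, none passed for feeding in hepatocytes (edgeR and DESeq2, none at an unadjusted p under 0.05), and their median log2 fold change was -0.03 against -0.01 for all genes. Among list genes with a mean of at least 10 CPM, those furthest from 0 are named. For paraspeckles they were Rbm14 (-0.52), Nono (0.36), Cpsf6 (0.29) and Hnrnph1 (-0.27). For position, 1 of the 18 was lower in the pericentral zone and none higher. Of 20 nuclear speckle proteins none passed for feeding (median 0.00), with Rnps1 (0.62), Luc7l3 (-0.42), Prpf8 (0.33) and Srrm2 (-0.33) furthest from 0. For position 1 speckle gene was higher and 1 lower. Of all 12296 genes tested for position, 8.04% were higher and 7.69% lower. Of 17 tested genes of silencing complexes, none passed for feeding and none had an unadjusted p under 0.05. Of these, 16 lay below 0 (median -0.21), where 49.5% of all 13982 genes lay above 0, with Rbbp4 (-0.69), Jarid2 (-0.62), Ezh2 (-0.36) and Dnmt3a (-0.34) furthest. Dnmt3a, a DNA methyltransferase, was the 1 gene of that list higher in the pericentral zone (0.27 ± 0.06, edgeR adjusted p = 0.00312).

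For feeding in hepatocytes, 951 of all 13982 genes tested had an unadjusted p under 0.05 in edgeR. Of 10 tested imprinted genes outside these regions, none passed for feeding with edgeR or DESeq2, and 1 had such a p. This was Peg3, a zinc finger gene used from the paternal copy, with 75.0 and 94.3 CPM in fasted libraries and 30.8 and 36.5 CPM in fed libraries (log2 fold change 1.29 ± 0.34, edgeR adjusted p = 0.554). Zrsr1 (-1.69), Impact (-0.20) and Trappc9 (0.09) also had a mean of at least 10 CPM. None of the 8 imprinted genes tested for position passed, where 15.7% of all genes tested did. Of 22 tested long noncoding RNAs outside the 5, none passed for feeding. An unadjusted p under 0.05 was found for 1 of them, beside the 951 of 13982 genes given above. This was Jpx, an activator of Xist, with 112 and 134 CPM in fasted libraries and 71.8 and 63.9 CPM in fed libraries (0.83 ± 0.30, edgeR adjusted p = 0.675). Mir22hg was at 0.50, Snhg11 at 0.45 and Snhg14 at 0.40. Snhg11 had 30.9 and 19.6 CPM in fasted libraries against 36.2 and 0.738 CPM in fed libraries, and without fed 1, which leaves 1 fed library, it passed (4.97, edgeR adjusted p = 0.00456), and without fed 2 it was at -0.49. For position 6 of 21 such RNAs were higher and 2 lower, where 8.04% of all genes tested were higher and 7.69% lower. The 6 included Rian and Mirg of the Meg3 region, given above. Snhg11 was among those higher, at 1.88 ± 0.14 (edgeR adjusted p = 3.01e-08), with 53.6 and 31.3 CPM in pericentral nuclei of fasted libraries and 63.5 and 1.91 CPM in those of fed libraries, against 12.7 and 11.6 CPM in periportal nuclei of fasted libraries and 15.4 and 0 CPM in those of fed libraries. Among the genes of the 3 imprinted regions, none passed for feeding in hepatocytes. Slc22a3 came nearest, with 35.8 and 50.7 CPM in fasted libraries and 13.8 and 20.4 CPM in fed libraries (1.30 ± 0.42, unadjusted p = 0.0196, adjusted p = 0.629 in edgeR), and Igf2r was at 0.67 ± 0.39.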

How the data were processed

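Single-nucleus RNA libraries of 2 fasted and 2 fed preparations were read as the counts of UMIs per gene and nucleus that the authors deposited, made with Cell Ranger 6.0 on mm10 per the submitters' processing notes. No source used here says whether introns or strand entered the counting. Between 13.2% and 17.0% of the stored matrix entries were 0 and were read as 0. Total counts were 30955600 and 24139311 UMIs in fasted libraries and 22924339 and 8078755 UMIs in fed libraries.

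The filter on nuclei asked for 500 genes and no more than 5% mitochondrial UMIs, and Scrublet scores removed 1108, 450, 758 and 233 doublets in fasted 1, fasted 2, fed 1 and fed 2 at a rate fixed by library size, since the automatic threshold marked 1857, 1, 1 and 0. Clustering used scanpy 1.11.5 (2000 variable genes, 30 components, 15 neighbours, Leiden resolution 1), and a name needed 3 markers, each in at least 10% of the nuclei. Counts were summed by library and type, or by library and zone of the lobule score, and tested with edgeR 4.0.16 (TMM scaling, filterByExpr, quasi-likelihood test, Benjamini-Hochberg adjustment over all genes tested). DESeq2 1.42.0 was an alternative. Types with at least 20 nuclei in each library were tested. The fits were tested on simulated data. Exact intervals are Clopper-Pearson or Poisson at 95% and, like the floor of 3 counts, cover counting error only. The named genes were the 5 RNAs, the 5 genes most like each of them in profile, the tested genes of their regions, and from each further list the 4 with the largest absolute feeding fold change among those with a mean of at least 10 CPM. Genes named outside that rule were chosen after their values were seen. The members and lists were chosen with earlier results of these data known. A gene of the Airn region is not reported here, and it was left out of that list's counts and median.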

Additional observations from a re-analysis of the deposited data

How the results depend on the processing

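The calls for position (Airn and Meg3 higher, Neat1 and Kcnq1ot1 lower) and the absence of a call for feeding in hepatocytes held under each alternative run. Without 1 library at a time, genes called for feeding numbered 4 to 232 in hepatocytes, 3 to 31 in B or plasma cells, 2 to 63 in Kupffer cells, 0 to 12 in cholangiocytes, 6 to 114 in endothelial nuclei and 8 to 33 in stellate cells, with 0 to 1 of the 5 RNAs in endothelial and stellate nuclei. For differences from hepatocytes they numbered 0 to 24, 3 to 124, 1 to 11, 11 to 364 and 11 to 86 in B or plasma, Kupffer, cholangiocyte, endothelial and stellate nuclei (0 to 1 of the 5 RNAs in Kupffer, endothelial and stellate nuclei), and for position by feeding 0 to 196 (0 to 1). DESeq2 called 165, 6, 10, 1, 18 and 6 genes for feeding in hepatocytes, B or plasma, Kupffer, cholangiocyte, endothelial and stellate nuclei, where edgeR called 1, 0, 1, 2, 6 and 3. With no filter on low counts, 274, 18, 26, 46 and 14 genes were called in hepatocytes, B or plasma, Kupffer, endothelial and stellate nuclei. With stored zeros counted as 1 there were 0 in hepatocytes, 2 in Kupffer cells and 4 in cholangiocytes, 1, 16 and 4 for the differences in B or plasma, Kupffer and stellate nuclei, and 38 for position by feeding. RLE scaling gave 5 for the cholangiocyte difference.

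Replicate numbers are not stated to pair libraries. Deviations of same-numbered libraries correlated at 0.424 over 13982 genes. With the replicate number as a block, 10, 7, 131, 16, 204 and 25 genes were called in hepatocytes, B or plasma, Kupffer, cholangiocyte, endothelial and stellate nuclei, and none of the 5 RNAs (Neat1 in hepatocytes -1.27, edgeR adjusted p = 0.184).

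The feeding value of Kcnq1ot1 in hepatocytes turned to 0.025 with no filter, 0.0004497 with stored zeros as 1 and 0.001101 with library totals only, an alternative chosen after seeing the data. Without 1 library at a time it ran from -0.27 to 0.16, that of Malat1 from -0.82 to 0.19 and that of Airn from -0.25 to 0.92. For position by feeding, Airn ran from -0.43 to 0.48 and Neat1 from 0.078 to 0.36. Neat1 ran from -2.40 to 0.025 in B or plasma cells, -1.69 to 0.24 in Kupffer cells and -0.078 to 0.52 in cholangiocytes. Other signs for feeding in hepatocytes that turned without 1 library were those of Cpsf6 (-0.090 to 0.73), Hnrnph1 (-0.84 to 0.46), Slc22a18 (-0.12 to 1.00), Nap1l4 (-0.040 to 0.18), Tssc4 (-1.19 to 0.29), Cd81 (-0.13 to 1.03), Plg (-0.52 to 0.053), Mirg (-0.68 to 0.37), Wdr25 (-0.67 to 0.71), Zrsr1 (-3.23 to 0.99), Trappc9 (-0.30 to 0.38), Dnmt3a (-0.98 to 0.76), Snhg11 (-0.49 to 4.97) and Snhg14 (-0.26 to 1.80), and for position Tssc4 (-0.25 to 0.17). Thinning turned Nap1l4 (-0.03) and Wdr25 (-0.036), and stored zeros as 1 turned Snhg11 (-0.22) and Snhg14 (-0.016). With stored zeros as 1, Meg3 averaged 13.8, 4.87 and 4.45 CPM in B or plasma, Kupffer and endothelial nuclei. Totals without abundant RNAs put Kcnq1ot1 at 482 CPM in cholangiocytes. Unthinned shares of hepatocytes were 1.38% for Meg3, 59.1% for Kcnq1ot1 and 24.9% for Airn. The cause of these changes was not tested. Each fit without 1 library leaves 1 library in its group, which is assumed to vary like the others. Fed 2 was the shallowest library, and hepatocyte calls numbered 203 without it and 232 without fed 1.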
